A study of Mus musculus with 31 samples.

Results

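The interleukin-1 (IL-1) family transcripts were followed in 2 tumor models after radiation therapy (RT): Il1a, Il1b, Il1rn, Il1r1, Il1r2, Il1rap, Il1rl1, Il33, Il18 and Il18bp. These 10 genes were chosen by symbol, with earlier results of these data known, out of 45802 gene symbols in the tables. All 10 were present in every library. RM-9, a mouse prostate cancer cell line, or MC-38, a mouse colon cancer cell line, was grown under the skin of the right hind leg of male C57BL/6 mice of WT genotype, and the tumors were left untreated (control) or given a single dose of 15 Gy. Messenger RNA of whole tumor was sequenced in 1 library per mouse, with 4 mice each in the RM-9 control, RT 3 h and RT 12 h groups, 3 in RM-9 RT 24 h, and 4 in each of the 4 MC-38 groups. The controls carry the 3 h label, so at 12 h and 24 h the effect of RT cannot be told apart from that of the time elapsed. The tumor model and the library set that held it cannot be told apart either. In whole tumor, fewer cells of a type and less RNA per cell cannot be told apart.

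IL-1α and IL-1β, encoded by Il1a and Il1b, signal through the receptor IL1R1 together with its accessory chain IL1RAP, and the signal runs through MYD88 to NF-κB. The system carries its own brakes: IL1RN is an antagonist that occupies IL1R1 without signalling, and IL1R2 is a decoy receptor that binds ligand and lacks a signalling domain. IL-18 has a secreted antagonist, IL-18 binding protein, and IL-33 acts through ST2, the product of Il1rl1, which also exists as a short soluble decoy. IL-1β and IL-18 are made as precursors that caspase-1 cleaves, so their mRNA does not give the active protein. The comparisons below ask how these transcripts differed between the untreated models, which of them moved after RT, and how each ligand stood against its antagonist, decoy or receptor.

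By the coordinates of the tables, which follow mouse build GRCm38, the receptors Il1r2 (chromosome 1, 40074079 to 40125231), Il1r1 (40225080 to 40317257) and Il1rl1 (40429570 to 40465415) lie in this order on the plus strand. On chromosome 2, Il1rn spans 24336853 to 24351494 on the plus strand, and Il1b (129364570 to 129371139) and Il1a (129299610 to 129309972) are on the minus strand. Il1rap lies on chromosome 16 (26581704 to 26730117), Il33 on chromosome 19 (29925114 to 29960718), Il18 on chromosome 9 (50575273 to 50581837) and Il18bp on chromosome 7 (102015079 to 102018155), the ends of Il18 and Il18bp differing from GENCODE M21 of that build. The stretches before the first exon of both ligands and of the antagonist are shown because the ligand and antagonist balance rests on these 3 genes. They come from the RefSeq promoter table (GRCm38.p6), which held all 10 members, and are written 5′ to 3′ with the AP-1 motif TGANTCA and the TATA box letters TATAAA in capitals, each searched on both strands.
Il1a, chr2:129309973-129310122, minus strand: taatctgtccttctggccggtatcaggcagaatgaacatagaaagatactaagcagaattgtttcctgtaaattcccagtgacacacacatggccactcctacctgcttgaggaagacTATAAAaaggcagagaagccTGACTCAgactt
Il1b, chr2:129371140-129371289, minus strand: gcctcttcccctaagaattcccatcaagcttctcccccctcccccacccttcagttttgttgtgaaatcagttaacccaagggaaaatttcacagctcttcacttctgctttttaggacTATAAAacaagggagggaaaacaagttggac
Il1rn, chr2:24336710-24336852, plus strand: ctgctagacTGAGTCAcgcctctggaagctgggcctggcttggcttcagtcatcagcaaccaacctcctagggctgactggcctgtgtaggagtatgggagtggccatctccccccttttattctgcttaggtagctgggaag
The TATAAA letters stood at positions -32 to -27 from the RefSeq start of Il1a and at -31 to -26 of Il1b, with -1 the last base before the start, and the searched 250 bases before the starts of Il1rn did not hold them. An AP-1 motif stood at -12 to -6 of Il1a and at -141 to -135 of the upstream start of Il1rn. The printed Il1rn stretch stops 7 bases before that start, where the annotated exon begins. The downstream starts of Il1rn, not printed, held no AP-1 motif. Of 32851 promoters searched over 250 bases, 12.4% held TATAAA and 6.75% held the AP-1 letters. These are matches of letters and not measured binding sites.

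Levels are given as TPM, transcript abundance per length that the authors scaled within each library to the same total, mitochondrial transcripts included. Depth, as the ratio of FPKM to coverage and the read length imply it, was 21.4 to 29.4 M reads per library. The single mitochondrial transcript mt-Nd4l took 35.6 to 43.5% of TPM in RM-9 and 12.9 to 29.6% in MC-38, so every other level was read against a total that differed between the models. Fold changes are differences of log2(TPM + 0.5), which understate the change of low genes, and a member was called at an adjusted p under 0.05 by limma with Benjamini-Hochberg adjustment over all genes tested. Median-ratio scaling centres the median of all genes near 0, and changes after it are given beside most of the values named, since that median moved between groups. The epithelial keratin Krt8 was at 805 to 980 TPM in RM-9 controls and at 0 to 0.202 in MC-38 controls. Of prostate markers, Pbsn was at 0 in the controls of both models, and Hoxb13 was at 0 to 0.0489 TPM in RM-9 and 1.32 to 2.56 in MC-38. Of 6 colon markers, Cdx2 was at 4.92 to 6.97 TPM in RM-9 controls and at 0 in MC-38 controls, Vil1 was at 0 in RM-9 and 0.229 to 0.506 in MC-38, and the list summed to 9.87 to 14.2 and 0.808 to 1.94. Single lineage markers thus ran both with and against the named tissues of origin.

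**Figure D1:**
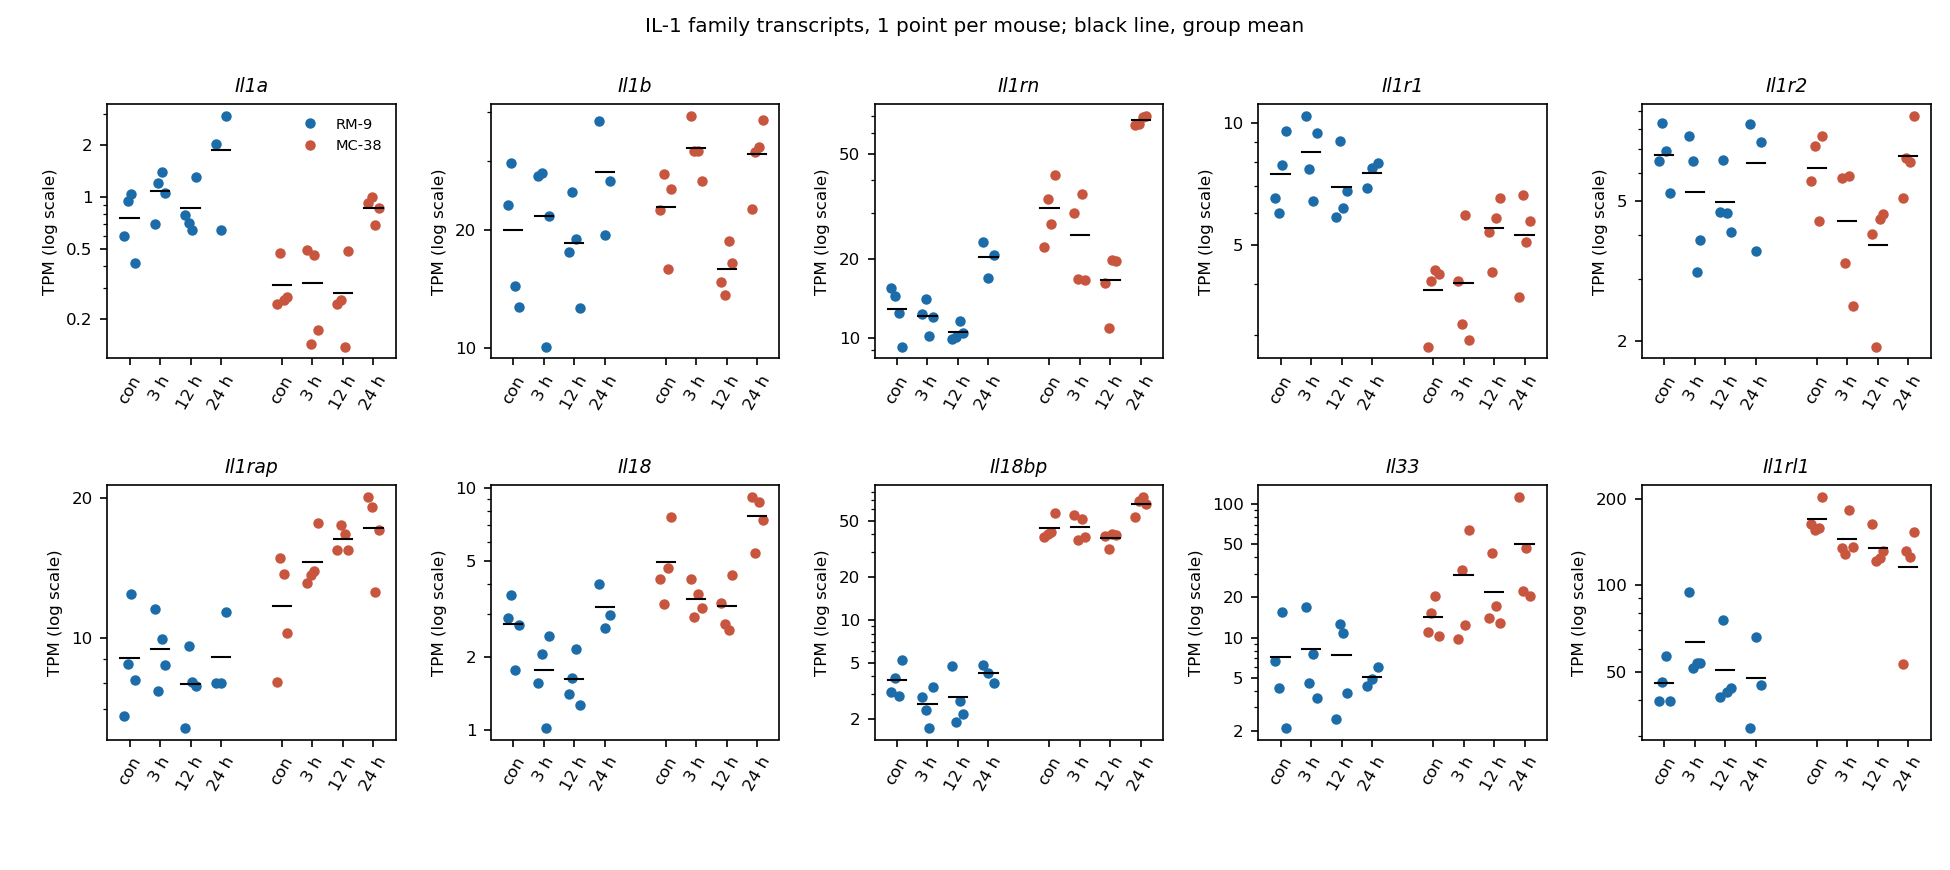
TPM of the 10 members on log axes, 1 point per mouse, for control tumors (con) and tumors 3 h, 12 h and 24 h after RT in RM-9 (blue) and MC-38 (red), with group means as black lines. The 4 MC-38 RT 24 h mice lie between 64.7 and 69.9 TPM for Il1rn, above the controls at 22.2 to 41.8, and Il18bp separates the models in every group.

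In untreated tumors Il18bp differed most between the models, as deposited and after median-ratio scaling. Il18bp was 11.8 times as abundant in MC-38 as in RM-9 by group means, Il1rl1 3.74 times and Il1rn 2.42 times, whereas Il1r1 was at 0.516 and Il1a at 0.413 of their RM-9 levels. By limma, 6 of 10 members were called (Il1a, Il1rn, Il1r1, Il1rl1, Il18 and Il18bp) where 75.5% of all 15341 genes tested were, so the count is below the background. Values of 4 members did not overlap between the control groups, or 4 of 10, against 60% of all genes. The median of all genes was 0.63 higher in MC-38 on the log2 scale and that of the members 0.54 higher. Of all genes 9941 (64.8%) were called higher and 1640 lower in MC-38, and 5226 (34.1%) and 4845 after median-ratio scaling. With that scaling, 65.6% of all genes and again 6 members were called, with Il1r2 in place of Il18.

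Il18bp, which sequesters IL-18, stood at 3.10, 3.87, 2.88 and 5.19 TPM in the RM-9 controls and at 38.6, 40.4, 41.6 and 56.7 in the MC-38 controls. Every MC-38 control was above every RM-9 control, and the log2 difference was 3.41 ± 0.21 (SE, adjusted p = 5.1e-14) and 2.78 ± 0.23 after median-ratio scaling. Its ligand Il18 was at 2.89, 3.59, 1.77 and 2.70 TPM in RM-9 and at 4.19, 3.31, 4.68 and 7.62 in MC-38. These ranges overlapped, and the difference of 0.72 ± 0.23 (adjusted p = 0.00583) fell to 0.14 ± 0.24 (adjusted p = 0.632) after median-ratio scaling.

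Il1rl1, which encodes the IL-33 receptor ST2, was the member with the highest TPM in both models. RM-9 controls held 39.7, 46.2, 56.9 and 39.5 TPM and MC-38 controls 163, 156, 159 and 203, with no overlap (log2 difference 1.90 ± 0.26, adjusted p = 2.74e-07; 1.23 ± 0.25 after median-ratio scaling). The ligand Il33, an alarmin released by damaged cells, varied widely, with 6.63, 4.23, 15.6 and 2.11 TPM in RM-9 controls and 11.1, 15.3, 20.6 and 10.2 in MC-38 controls. The groups overlapped and the difference was 1.22 ± 0.62 (adjusted p = 0.0757; 0.59 ± 0.63 after median-ratio scaling).

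The IL-1 antagonist Il1rn was at 15.5, 14.5, 12.5 and 9.28 TPM in RM-9 controls and at 22.2, 33.9, 27.1 and 41.8 in MC-38 controls, again without overlap (1.23 ± 0.21, adjusted p = 1.18e-05; 0.57 ± 0.23 and adjusted p = 0.0283 after median-ratio scaling). The signalling receptor Il1r1 went the other way, at 6.52, 6.00, 7.87 and 9.55 TPM in RM-9 and 2.80, 4.07, 4.34 and 4.24 in MC-38 (-0.87 ± 0.20, adjusted p = 3.06e-04; -1.49 ± 0.17 after median-ratio scaling). Il1b did not separate the models, with 12.7 to 29.7 TPM in RM-9 controls and 15.9 to 27.8 in MC-38 controls (0.24 ± 0.28, adjusted p = 0.435; -0.41 ± 0.30 and adjusted p = 0.233 after median-ratio scaling). Il1a was close to the floor of the tables, at 0.418 to 1.04 TPM in RM-9 and 0.244 to 0.477 in MC-38 (-0.61 ± 0.25, adjusted p = 0.0279; -0.96 ± 0.26 and adjusted p = 0.00222 after median-ratio scaling). As deposited, that call was lost without RM-9 control mouse 2 or 3 or MC-38 control mouse 1, 3 or 4, with adjusted p from 0.0548 to 0.0938. The accessory chain Il1rap and the decoy Il1r2 were not called (adjusted p = 0.0868 and 0.710), and the sign of the Il1rap difference turned from 0.35 to -0.29 with median-ratio scaling.

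The summed TPM of 8 macrophage markers was 573 to 908 in RM-9 controls and 1042 to 1765 in MC-38 controls, with none at 0. Of the 8, 6 were called higher, near the share of all genes (64.8%). After median-ratio scaling 2 were higher and 1 lower, where 34.1% of all genes were higher. The 10 neutrophil markers summed to 13.7 to 19.9 TPM in RM-9 controls and 12.5 to 27.1 in MC-38 controls, with Ly6g at 0 in every MC-38 control. The 8 mast cell and basophil markers, from cells known to carry ST2, summed to 17.3 to 36.7 TPM in RM-9 and 9.43 to 22.7 in MC-38, with 1 called higher and 1 lower in MC-38. Their part in the results was not tested.

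**Figure D2:**
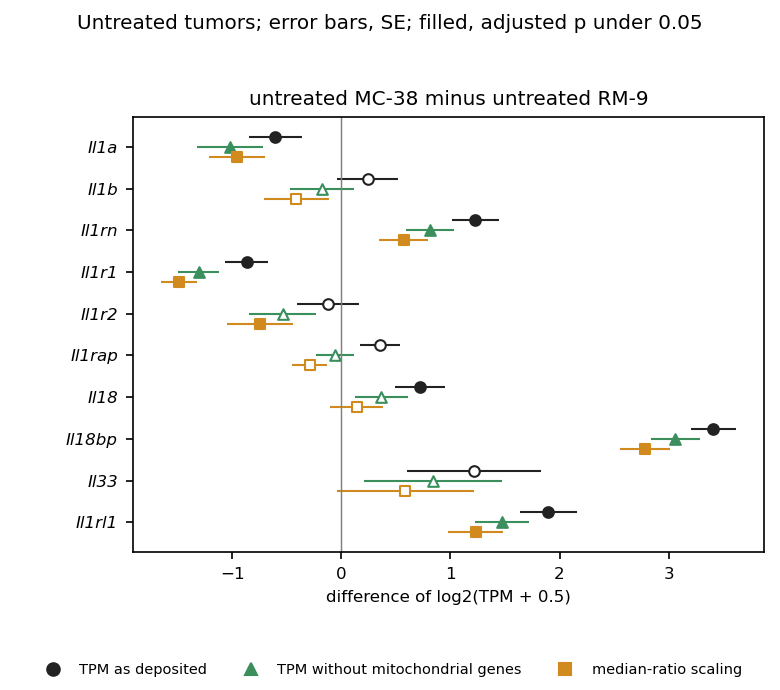
Difference of log2(TPM + 0.5) between untreated MC-38 and untreated RM-9 tumors (4 mice each) for the 10 members, as deposited (circles), without mitochondrial genes (triangles) and after median-ratio scaling (squares). Bars are SE and filled symbols have an adjusted p under 0.05; Il18bp, Il1rl1 and Il1rn stay above 0, Il1r1 and Il1a stay below 0, and Il1rap changes sign.

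Ordered by mean TPM in the controls, RM-9 ran from Il1rl1 (45.6 ± 8.2, SD, n = 4) through Il1b (19.98 ± 7.92), Il1rn (12.9 ± 2.7), Il1rap (9.03 ± 2.43), Il1r1 (7.48 ± 1.59), Il33 (7.14 ± 5.92), Il1r2 (6.75 ± 1.25), Il18bp (3.76 ± 1.04) and Il18 (2.74 ± 0.75) to Il1a (0.754 ± 0.295). Neighbours in that order overlapped between mice except Il1rl1 over Il1b, Il1r2 over Il18bp and Il18 over Il1a. In MC-38 the order was Il1rl1 (170 ± 22, SD, n = 4), Il18bp (44.3 ± 8.3), Il1rn (31.2 ± 8.5), Il1b (22.9 ± 5.1), Il33 (14.3 ± 4.8), Il1rap (11.7 ± 3.1), Il1r2 (6.21 ± 1.47), Il18 (4.95 ± 1.87), Il1r1 (3.86 ± 0.72) and Il1a (0.311 ± 0.111). Here the gaps without overlap were those of Il1rl1 over Il18bp, Il1rap over Il1r2 and Il1r1 over Il1a. These orders depend on whether the level is taken from TPM or from coverage. The coverage-based level is coverage brought to the scale of TPM by the most common ratio of FPKM to coverage in the library. By that level Il1rl1 overlapped Il1b in RM-9 controls (13.1 to 18.9 and 8.94 to 20.9) and Il18bp in MC-38 controls (43.6 to 57.7 and 38.6 to 56.7). In RM-9 Il18bp then had a higher mean (3.76) than Il1rap (3.32), Il33 (2.71) and Il1r1 (1.68), and the mean of Il1r2 fell to 0.460 in RM-9 and 0.451 in MC-38, below Il1r1 in both.

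In RM-9 tumors no member was called at 3 h, 12 h or 24 h after RT. Of all 13996 genes tested, limma called 0.229% at 3 h (28 higher and 4 lower), 8.38% at 12 h (10 higher and 1163 lower) and 0% at 24 h. After median-ratio scaling the split was 237 higher and 169 lower at 3 h and 10 and 6 at 12 h. At an unadjusted p under 0.05 there were 1, 1 and 2 of 10 members beside 21.8%, 31% and 4.84% of all genes. The counts at 3 h and 12 h are thus below the background. Dunnett's comparisons of TPM with control, the study's own kind of test, gave 0, 0 and 1, adjusted over the times and not over genes. Across the 3 times the members' median change was 0.09, -0.12 and 0.10 on the log2 scale, beside 0.06, -0.19 and -0.04 for all genes tested.

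The RM-9 member whose groups did not overlap was Il1rn at 24 h, 1 of 10 members against 4.24% of all genes, whereas at 3 h and 12 h no member stood apart beside 12.8% and 19.7% of genes. The 3 mice held 23.3, 16.998 and 20.7 TPM beside 9.28 to 15.5 in the controls, 1.57 times the control mean (0.65 ± 0.16, adjusted p = 0.743 by limma; exact permutation p = 0.0286, two-sided, the smallest that 3 against 4 mice allow). At 3 h Il1rn was at 12.4, 14.1, 10.2 and 12.0 TPM and at 12 h at 9.96, 10.1, 11.6 and 10.5, both within the control range. The ligand Il1b held 27.5, 27.9, 10.1 and 21.7 TPM at 3 h, 17.6, 24.9, 18.9 and 12.6 at 12 h, and 37.9, 19.4 and 26.7 in the 24 h mice. Each of these groups overlapped the controls (exact permutation p = 0.800, 0.771 and 0.257). Il1a reached 2.03 and 2.92 TPM in 2 of the 3 RM-9 mice at 24 h and 0.648 in the third.

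Il18 in RM-9 was at 1.41, 1.64, 2.15 and 1.27 TPM at 12 h, where 3 of 4 mice lay below every control (-0.60 ± 0.22, adjusted p = 0.0858; -0.43 ± 0.22 and adjusted p = 0.367 after median-ratio scaling). Without RM-9 control mouse 3, whose value of 1.77 was the lowest, the change was -0.76 and was called (adjusted p = 0.0404). Macrophage markers were at 309 to 609 TPM in that group, with 4 of 8 called lower (8.31% of all genes were) and 0 after median-ratio scaling, and their part in the result was not tested. Il1rl1 was at 31.9 to 94.6 TPM over the RM-9 mice given RT, the highest being 1 mouse at 3 h, and was not called at any time.

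In MC-38 tumors the antagonist Il1rn moved in both directions, below every control at 12 h and above every control at 24 h. By limma, 0 of the 9 members tested were called at 3 h, where 0.0638% of all genes were, with 1 at an unadjusted p under 0.05 beside 20% of all genes. At 12 h, 2 of 9 were called beside 31.2% of all genes, and at 24 h 2 of 9 beside 13.8%. Il1a was under the filter of a mean of 0.5 TPM in this model and was not in that fit. Most called genes were higher, 28.6% of genes at 12 h against 2.6% lower (4483 and 408 genes) and 2074 (13.2%) against 86 genes at 24 h, and after median-ratio scaling the split was 989 higher (6.31%) and 1567 lower at 12 h and 1227 (7.83%) and 1287 at 24 h. Dunnett's comparisons of TPM called 1 of 10 members at 3 h (Il1b), 1 at 12 h (Il1rn) and 5 at 24 h (Il1a, Il1rn, Il1rap, Il18 and Il18bp). The median of all genes rose by 0.33 at 12 h and 0.22 at 24 h, while the members' median was -0.33 and 0.55. Groups did not overlap for 0 of 10 members at 3 h (8.19% of all genes), 2 of 10 at 12 h (36.5%) and 3 of 10 at 24 h (15.7%).

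At 12 h Il1rn was at 16.3, 10.97, 19.9 and 19.6 TPM beside 22.2, 33.9, 27.1 and 41.8 in the controls, 0.534 of the control mean (-0.88 ± 0.25, adjusted p = 0.0217; -1.23 ± 0.25 and adjusted p = 0.00804 after median-ratio scaling). The call was lost without MC-38 control mouse 4 (-0.73, adjusted p = 0.0608) or without RT 12 h mouse 2 (-0.70, adjusted p = 0.0692). At 24 h the 4 mice were at 64.7, 65.4, 69.4 and 69.9 TPM, 2.16 times the control mean (1.13 ± 0.25, adjusted p = 0.00907; 0.87 ± 0.25 and adjusted p = 0.0293 after median-ratio scaling). The spread within the 24 h group, an SD of 2.67 TPM, was smaller than that of the controls, 8.54 TPM. Leaving out any 1 of the 8 mice kept this call, with adjusted p from 0.0086 to 0.0285. At 3 h Il1rn was at 29.9, 16.8, 35.4 and 16.7 TPM, overlapping the controls.

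The summed TPM of the 8 macrophage markers was 1042 to 1765 in MC-38 controls, 361 to 929 at 12 h and 812 to 1141 at 24 h. At 12 h 6 of 8 were called lower and 7 after median-ratio scaling, and at 24 h 0 and 3, with median changes of -0.54 as deposited and -0.80 after that scaling at 24 h. Neutrophil markers summed to 12.5 to 27.1 TPM in controls, 13.7 to 16.99 at 12 h and 21.6 to 38.0 at 24 h, with none called at either time, and 3 of 10 were at 0 in every 24 h mouse. Skeletal muscle markers, from the tissue beside the tumor, summed to 17.4 to 9822 TPM in controls, 5.60 to 423 at 12 h and 10.4 to 3308 at 24 h, none called. The 9822 TPM were those of control mouse 1, in which mt-Nd4l took 29.6% of TPM and Il1rn was the lowest of the controls (22.2 TPM). At 24 h the highest sum was that of RT 24 h mouse 1. One library, RT 12 h mouse 4, held keratinocyte markers at 67.5 TPM where the other MC-38 libraries held at most 1.18, and its Il1rn value of 19.6 TPM lay within its group. The part of macrophages and of the other cell types in the changes was not tested.

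The ligand Il1b was called by limma at no time in MC-38, and by Dunnett's comparisons of TPM at 3 h. Controls held 22.5, 27.8, 15.9 and 25.4 TPM, RT 3 h mice 39.0, 31.7, 31.9 and 26.6, RT 12 h mice 14.8, 13.7, 18.8 and 16.5, and RT 24 h mice 22.7, 31.5, 32.6 and 38.2. The 3 h and 24 h means were 1.41 and 1.37 times the control mean with 3 of 4 mice above every control (0.51 ± 0.18 and 0.45 ± 0.18, adjusted p = 0.180 and 0.113; 0.29 ± 0.21 and 0.18 ± 0.21 after median-ratio scaling). At 12 h the change was -0.49 ± 0.18 (adjusted p = 0.0519), and it was called after median-ratio scaling (-0.84 ± 0.21, adjusted p = 0.0190) and without MC-38 control mouse 3 (-0.65, adjusted p = 0.0106). Without RT 24 h mouse 1, the lowest of its group, the 24 h change was 0.59 (adjusted p = 0.0387).

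Il1a, the second ligand, was low but separated at 24 h, with 0.927, 1.00, 0.689 and 0.862 TPM in the MC-38 RT mice and 0.244, 0.477, 0.256 and 0.268 in controls. All 4 mice lay above every control, 2.80 times the control mean (exact permutation p = 0.0286, two-sided, the smallest that 4 against 4 mice allow). At 3 h and 12 h it spanned 0.143 to 0.494 and 0.138 to 0.493 TPM. Over all libraries these levels correspond to roughly 5 to 181 reads.

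Il18bp was at 53.0, 68.2, 73.2 and 65.5 TPM 24 h after RT in MC-38, where 3 of 4 mice lay above the highest control of 56.7 (0.55 ± 0.16, adjusted p = 0.0286). After median-ratio scaling the change was 0.29 ± 0.17 (adjusted p = 0.271), and the call was also lost without MC-38 control mouse 1 or 2 or without RT 24 h mouse 2, 3 or 4, with adjusted p from 0.0623 to 0.0764. At 12 h it was at 39.1, 31.6, 40.4 and 39.5 TPM (-0.22 ± 0.16, adjusted p = 0.261), and after median-ratio scaling this was called lower (-0.57 ± 0.17, adjusted p = 0.0337). Its ligand Il18 was at 3.34, 2.74, 2.60 and 4.36 TPM at 12 h and 9.17, 5.38, 8.73 and 7.38 at 24 h, beside 4.19, 3.31, 4.68 and 7.62 in the controls. As deposited neither change passed the test by limma (-0.50 ± 0.23 and 0.62 ± 0.23, adjusted p = 0.0920 and 0.0789). After median-ratio scaling the 12 h change was called (-0.81 ± 0.25, adjusted p = 0.0388) and the 24 h change was 0.37 ± 0.25 (adjusted p = 0.346). The 24 h change of Il18 was called without MC-38 control mouse 4, the highest control (0.83, adjusted p = 0.0260), and the 12 h change without control mouse 2 (-0.65, adjusted p = 0.0424).

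Among the receptors, the accessory chain Il1rap was above every control at 12 h, at 15.5, 17.5, 16.8 and 15.5 TPM beside 8.03, 14.9, 13.7 and 10.2 (0.50 ± 0.18, adjusted p = 0.0477). Relative to the median of all genes the change was 0.16 ± 0.14 (adjusted p = 0.440), and the call was lost without MC-38 control mouse 1 (0.34, adjusted p = 0.163) or 4 and without each RT 12 h mouse in turn. At 24 h it was at 20.1, 19.2, 12.5 and 17.1 TPM (0.55 ± 0.18, adjusted p = 0.0530; 0.30 ± 0.14 and adjusted p = 0.169 after median-ratio scaling), and as deposited this was called without RT 24 h mouse 3 (0.69, adjusted p = 0.0236) or without control mouse 2 or 3. Il1r1 was at 5.37, 4.27, 5.84 and 6.53 TPM at 12 h and 3.71, 6.63, 5.09 and 5.73 at 24 h, with 3 of 4 mice above every control at each time (0.46 ± 0.22 and 0.40 ± 0.22, adjusted p = 0.101 and 0.222; 0.15 ± 0.19 and 0.16 ± 0.19 after median-ratio scaling). The decoy Il1r2 was at 4.02, 1.93, 4.44 and 4.58 TPM at 12 h (-0.69 ± 0.28, adjusted p = 0.0672) and was called lower after median-ratio scaling (-1.01 ± 0.30, adjusted p = 0.0343) and without MC-38 control mouse 3 (-0.84, adjusted p = 0.0331).

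Scaled by median ratio, 5 of 9 members were called lower at 12 h (Il1b, Il1rn, Il1r2, Il18 and Il18bp) beside 9.99% of all genes called lower, and 2 of 9 at 24 h, Il1rn higher and Il1rl1 lower, beside 16%. The receptor chains Il1r1 and Il1rap and the ligand Il33 were called at neither time with this scaling, and the receptor Il1rl1 was not called at 12 h.

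**Figure D3:**
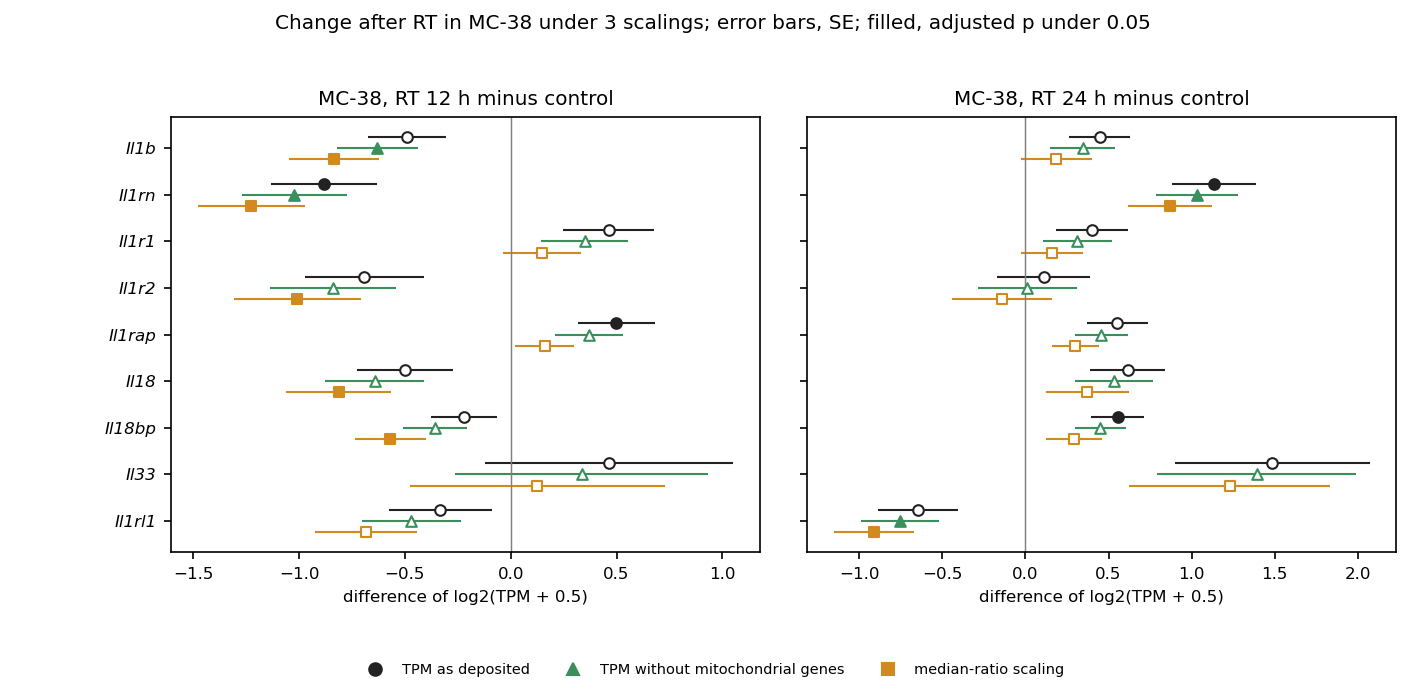
Change of 9 members 12 h (left) and 24 h (right) after RT in MC-38, as the difference of log2(TPM + 0.5) from control, as deposited (circles), without mitochondrial genes (triangles) and after median-ratio scaling (squares), 4 mice per group. Bars are SE and filled symbols have an adjusted p under 0.05; Il1rn is filled under all 3 scalings at both times.

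At 24 h the ST2 transcript lay below and its ligand mostly above the MC-38 controls, neither past the test. Il1rl1 was at 53.4, 132, 126 and 154 TPM beside 163, 156, 159 and 203 in MC-38 controls, with every RT mouse below every control (-0.65 ± 0.24, adjusted p = 0.0851). It was called after median-ratio scaling (-0.91 ± 0.24, adjusted p = 0.0181), and without RT 24 h mouse 1 the change was -0.31 (adjusted p = 0.134). Il33 was at 113, 22.4, 46.4 and 20.3 TPM at 24 h beside 11.1, 15.3, 20.6 and 10.2 (1.48 ± 0.59, adjusted p = 0.0996; 1.23 ± 0.60 and adjusted p = 0.189 after median-ratio scaling), and mouse 1 held both the highest Il33 and the lowest Il1rl1 of its group. Without that mouse the Il33 change was 0.98 (adjusted p = 0.213). At 3 h Il33 was already uneven, at 9.77, 31.9, 12.4 and 63.8 TPM, and at 12 h at 13.98, 43.2, 17.2 and 12.9, with 2 mice and 1 mouse above every control.

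The change in MC-38 minus the change in RM-9 was tested as an interaction in 1 fit of both models. At 3 h and 24 h no member was called by limma, beside 0% and 1.83% of all genes called. No member had an unadjusted p under 0.05 at these times, beside 1513 and 3402 of 15341 genes. At 12 h Il1rap was called (0.65 ± 0.26, adjusted p = 0.0454) where 45.5% of all genes were, 6911 higher and 71 lower. That call was lost in 12 of 16 fits that each left out 1 mouse, with adjusted p up to 0.135. After median-ratio scaling 3.02% of genes were called at 12 h, 232 higher and 231 lower, and the member called was Il1rn (-1.14 ± 0.32, adjusted p = 0.0495) instead of Il1rap. The 24 h changes of Il1rn in the models, 1.13 and 0.65, were not shown to differ (0.49 ± 0.32, adjusted p = 0.362).

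The balances of ligand and inhibitor were taken per mouse as differences of log2(TPM + 0.5). Of 35 balance comparisons, 6 had an exact permutation p under 0.05 (each 0.0286, the smallest possible) and none an adjusted p under 0.05, the smallest being 0.167. Of 60 comparisons of single members with control, 6 had an exact permutation p under 0.05. With so few mice such a p needs groups that do not overlap. Among all genes tested that held for 12.8% (3 h), 19.7% (12 h) and 4.24% (24 h) in RM-9. The MC-38 shares were 8.19%, 36.5% and 15.7%. Members lay below these shares at the earlier times. At 24 h groups did not overlap for 1 of 10 in RM-9 (Il1rn) and 3 of 10 in MC-38 (Il1a, Il1rn and Il1rl1). These counts are small and were not tested against the shares. In MC-38 Il1a was under the filter and is not among the genes behind the shares.

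Il1rn stood below Il1b in every RM-9 control, at a TPM ratio of 0.487 to 0.869, and near or above it in MC-38 controls, at 0.986 to 1.70. The log2 balance was -0.57, -1.013, -0.20 and -0.43 in RM-9 and -0.02, 0.29, 0.75 and 0.71 in MC-38 (difference 0.98, exact permutation p = 0.0286, adjusted p = 0.167). After RT in MC-38 it was -0.38, -0.90, 0.15 and -0.66 in the 3 h mice, 0.13, -0.30, 0.08 and 0.25 in the 12 h mice, and 1.49, 1.04, 1.08 and 0.86 in the 24 h mice. The latter were all above the controls (0.69, exact permutation p = 0.0286, adjusted p = 0.167), whereas at 3 h the difference of -0.88 was within overlapping groups (exact permutation p = 0.0571). The exact permutation p at 24 h was 0.0857 without RT 24 h mouse 1 and 0.0571 without RT 24 h mouse 2 or 3 or control mouse 1. Between the untreated models it was 0.0571 without RM-9 control mouse 1, 2 or 4. In RM-9 no time separated from control (differences -0.17, -0.19 and 0.14). By coverage Il1rn was below Il1b in MC-38 controls too, at 0.503 to 0.828 of it, so which of the pair was the more abundant depended on the measure used. Against Il1a, the antagonist was in excess throughout, at TPM ratios of 12.0 to 25.8 in RM-9 controls and 71.1 to 156 in MC-38 controls (difference 1.83, exact permutation p = 0.0286, adjusted p = 0.167).

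Of the 5 pairs, Il18bp over Il18 differed most between the untreated models, with log2 balances of 0.09, 0.09, 0.58 and 0.83 in RM-9 controls and 3.06, 3.42, 3.03 and 2.82 in MC-38 controls (2.68, exact permutation p = 0.0286, adjusted p = 0.167). The TPM ratio was 1.07 to 1.92 in RM-9 and 7.44 to 12.2 in MC-38. It changed little after RT, by -0.06 to 0.43 in MC-38 and -0.04 to 0.22 in RM-9, and no group separated from its controls. The Il1rl1 to Il33 balance of MC-38 was 3.83, 3.31, 2.91 and 4.25 in controls and -1.07, 2.53, 1.43 and 2.89 at 24 h (-2.13, exact permutation p = 0.0286, adjusted p = 0.167). Without RT 24 h mouse 1 the difference was -1.29 (exact permutation p = 0.0571). With each control mouse left out in turn the exact permutation p was 0.0857 to 0.114.

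The decoy balance, Il1r2 minus Il1r1, was 0.91, 0.74, 0.01 and 0.77 in MC-38 controls and -0.38, -0.97, -0.36 and -0.47 at 12 h, with no overlap (-1.15, exact permutation p = 0.0286, adjusted p = 0.167). With each RT 12 h mouse left out in turn the exact permutation p was 0.0571. By TPM the decoy was 1.007 to 2.04 times the receptor in MC-38 controls, but by coverage, the mean number of reads over each base, it was 0.326 to 0.682 of it. The FPKM of Il1r2 was 13.5 to 15.8 times what its coverage gives at the library's common ratio, above the 5.21 that its shortest transcript in GENCODE M21 allows, and its coverage corresponds to about 5 to 35 reads per library. Such an excess was found for 2.37% of 9065 genes. Coverage and TPM thus placed Il1r2 differently against Il1r1. On the coverage-based level the 12 h shift was -0.59 (exact permutation p = 0.0286, adjusted p = 0.143). There the added 0.5 was about as large as the Il1r2 level itself (mean 0.451 in MC-38 controls), which shrinks the shift. Without it, the median coverage ratio of Il1r2 to Il1r1 was 0.574 in MC-38 controls and 0.254 at 12 h.

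**Figure D4:**
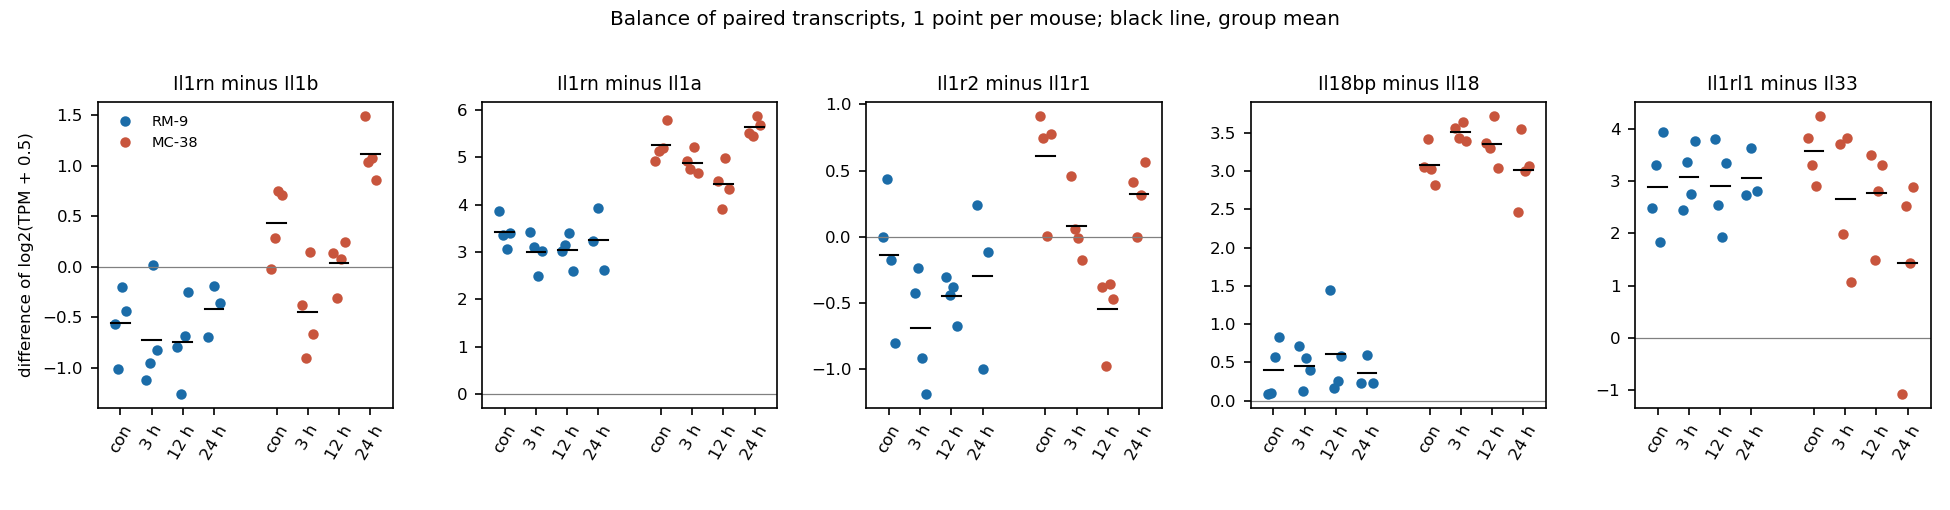
Difference of log2(TPM + 0.5) between 2 transcripts in the same mouse, 1 point per mouse with group means as black lines, for 5 pairs in RM-9 (blue) and MC-38 (red). Il18bp minus Il18 is 2.82 to 3.42 in MC-38 controls and 0.09 to 0.83 in RM-9 controls, and Il1rn minus Il1b lies above its controls in MC-38 at 24 h.

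Soluble and membrane ST2 come from the same gene and TPM adds them up. The ratio of FPKM to coverage of Il1rl1 was 2.93 to 3.03 in RM-9 controls and 3.51 to 3.66 in MC-38 controls (exact permutation p = 0.0286). The 2 models did not overlap in any group (2.84 to 3.27 against 3.45 to 3.67). How the deposited FPKM was set for a gene with several transcripts is not known, so the ratio cannot be read as a transcript length. Transcripts of Il1rl1 in GENCODE M21 are 375 to 5302 bases long. By the coverage-based level the MC-38 control mean was 47.6 and the RM-9 control mean 15.2, a difference in the same direction as by TPM. In RM-9 the ratio was also higher at 3 h than in control (3.03 to 3.27, exact permutation p = 0.0286), by a narrow gap of lowest 3.032 against highest control 3.028. In MC-38 the Il1rl1 ratio did not separate from control at any time. These p-values were not adjusted, though the ratio was tested for every member and comparison. That of Il1r2 in MC-38 at 12 h was as small. Which isoforms were present was not measured.

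**Figure D5:**
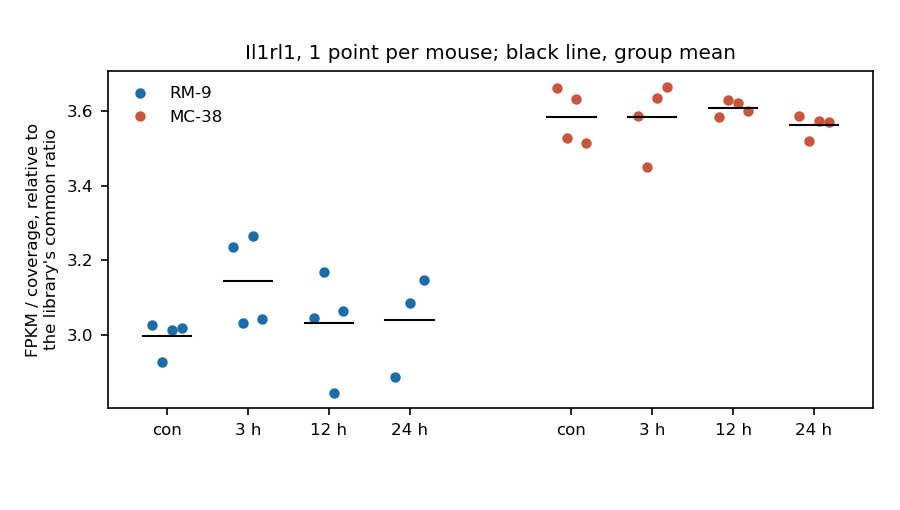
FPKM divided by coverage for Il1rl1, relative to the most common ratio in the library, 1 point per mouse with group means as black lines. RM-9 mice (blue) lie at 2.84 to 3.27 and MC-38 mice (red) at 3.45 to 3.67.

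Further members of the family were searched under 15 symbols, of which 11 were in the tables. The IL-36 ligands and antagonist, listed there under Il1f names, were at or close to 0: Il1f5, Il1f6 and Il1f8 were at 0 in the control and 24 h groups, and Il1f9 reached 0.604 TPM at most in MC-38 24 h after RT. The IL-18 receptor chains were uneven, with Il18rap at 16.4 to 21.1 TPM and Il18r1 at 0.0686 to 0.279 in RM-9 controls, and 12.0 to 19.3 and 0.378 to 1.06 in MC-38 controls. Sigirr, an inhibitory receptor of the family, fell 12 h after RT in RM-9 (-0.44 ± 0.12, adjusted p = 0.0379) and rose in MC-38 (0.50 ± 0.16, adjusted p = 0.0328). Neither call held after median-ratio scaling (adjusted p = 0.332 and 0.246).

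Of 17 genes of IL-1 receptor signalling, all tested, 0 were called in RM-9 at 3 h and 24 h and 2 were lower at 12 h, the adaptor Myd88 (-0.48 ± 0.14, adjusted p = 0.0476) and the NF-κB subunit Rela (-0.31 ± 0.09, adjusted p = 0.0478), where 8.31% of all genes were lower. After median-ratio scaling neither was called (-0.27 ± 0.12 and -0.09 ± 0.07, adjusted p = 0.308 and 0.568), and 1 gene of the list was higher at 3 h. In MC-38 none was called at 3 h, 5 were higher and 1 lower at 12 h beside 28.6% and 2.6% of all genes, and 4 were higher at 24 h beside 13.2%, when Myd88 went from 44.7 ± 7.7 to 64.6 ± 5.7 TPM (SD, n = 4; 0.54 ± 0.12, adjusted p = 0.00842) and the kinase Irak4 from 9.72 ± 1.56 to 14.05 ± 0.94 (0.52 ± 0.13, adjusted p = 0.0153). The list's median of 0.36 at 24 h stood beside 0.22 for all genes. After median-ratio scaling no gene of the list was called at 24 h, and 1 was lower at 12 h. In untreated tumors 12 were higher and 1 lower in MC-38, and 6 and 6 after median-ratio scaling, so that 13 and 12 of 17 were called where 75.5% and 65.6% of all genes were, shares near the background.

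Of the genes that process and release the cytokines, 9 were tested in MC-38, and 4 were higher and 2 lower at 12 h beside 28.6% and 2.6% of all genes. After median-ratio scaling 0 were higher and 2 lower. Pycard, the inflammasome adaptor ASC, fell from 14.04 ± 4.52 to 5.57 ± 2.23 TPM (SD, n = 4; -1.28 ± 0.27, adjusted p = 0.00995; -1.61 ± 0.30 after median-ratio scaling). At 24 h 3 were higher, beside 13.2% of all genes, among them the inflammatory caspase Casp4 (52.9 ± 15.0 to 110 ± 17 TPM; 1.09 ± 0.19, adjusted p = 0.00232) and Casp1, which cleaves IL-1β and IL-18 (46.1 ± 8.8 to 75.01 ± 11.84 TPM; 0.70 ± 0.16, adjusted p = 0.0109). Both were also called after median-ratio scaling (0.82 ± 0.13 and 0.44 ± 0.12). In RM-9, 7 were tested and none was called at any time. Untreated, Casp1 was at 4.23 ± 1.008 TPM in RM-9 and 46.1 ± 8.8 in MC-38, and Casp4 at 5.30 ± 0.90 and 52.9 ± 15.0 (SD, n = 4), and 7 of 8 genes tested were higher in MC-38 (6 higher and 1 lower after median-ratio scaling), beside 64.8% of all genes higher (34.1% after scaling).

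Of genes that IL-1 and NF-κB are known to induce, 10 of 14 tested rose in MC-38 by 24 h. In RM-9 0 of 14 were called at each time, with a median change of 0.51 at 24 h. In MC-38, 0 of 14 were called at 3 h, 7 were higher at 12 h and 10 at 24 h, beside 28.6% and 13.2% of all genes, with medians of 0.50, 0.71 and 1.03. Il6 went from 1.34 ± 0.32 to 6.22 ± 2.22 TPM at 24 h (SD, n = 4; 1.82 ± 0.21, adjusted p = 2.85e-04; 1.62 ± 0.22 after median-ratio scaling) and Icam1, an adhesion molecule for leukocytes, from 10.7 ± 2.0 to 27.6 ± 5.8 (1.33 ± 0.17, adjusted p = 4.0e-04; 1.07 ± 0.24 after median-ratio scaling). After median-ratio scaling 8 of 14 were higher at 24 h, beside 7.83% of all genes, and 1 at 12 h, beside 6.31%. Untreated, 13 of 15 were higher and 2 lower in MC-38 (9 and 2 after median-ratio scaling), beside 64.8% of all genes higher (34.1% after scaling). The 24 h change of Il6 differed between the models (1.66 ± 0.27, adjusted p = 0.00123; 1.37 ± 0.28 after median-ratio scaling).

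As a description, members and other genes were set side by side over the 31 libraries after the mean of each model was taken off, among 12249 to 12250 genes. The libraries share their total scaling, so no p is given. Il1rn ran closest to Lilrb4 (r = 0.92), Basp1 and Cd53, Il1b to Clec4d (r = 0.71), Tlr2 and Ly6i, and Il1r2 to Fpr2 (r = 0.83). Il18 ran closest to Slfn2 (r = 0.88), Slfn1 and Pyhin1, and Il18bp to Slfn2 (r = 0.81), Ccl7 and Socs1. Il1r1 ran closest to Nomo1 (r = 0.86), Il1rap to Pxdn (r = 0.89), Il1a to Csn3 (r = 0.81) and Il1rl1 to Bloc1s3 (r = 0.73). Among the members themselves the highest correlations were Il1rn with Il18 (r = 0.79), Il18 with Il18bp (r = 0.72) and Il1rn with Il1r2 (r = 0.70).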

How the data were processed

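mRNA of 31 tumors was sequenced with a stranded kit that leaves 75-base single reads. Each library has a gene table from the authors. Its TPM and FPKM values were scaled by the authors inside the library, and its coverage values (mean reads over each base) were deposited without any correction for depth. Aligner, counting tool and filters are not given in the sources used here; the submitters' processing notes name bcl2fastq 2.17 and GRCm39, whereas 91.1% of the genes shared with GENCODE M21 had a start or end equal to GRCm38, which was used for positions. No read counts were at hand, so no counting error is given, and reads per member were estimated from coverage, exon length and read length.

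Symbols in more than 1 row were summed. Values were taken as log2(TPM + 0.5) and fitted with limma 3.58.1 in R 4.3.3 (lmFit, eBayes with an intensity trend, Benjamini-Hochberg over all genes tested). The RT comparisons used all groups of a model (13996 genes in RM-9, 15680 in MC-38, mean TPM of at least 0.5), and the comparisons between models all 31 libraries (15341 genes). Each RT comparison of a model shares the same 4 controls. Single members and balances were tested with exact permutation tests over all assignments of the mice, two-sided. Dunnett's comparisons were run with scipy 1.17.1. The coverage-based level is coverage scaled to TPM by the most common ratio of FPKM to coverage in a library. That ratio was held by 37.9 to 39.2% of the genes with coverage above 1. The fit was tested on simulated data.

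The text names all 10 members; from each pathway list up to 2 genes per comparison with the smallest p among those called; for each member up to 3 genes with the highest correlation (some given without r; those of Il33, and some lineage markers, are not reported here); mt-Nd4l; and marker lists by their sums. Lineage markers, single genes of the lists named at their level only, and the low family genes were named after their values were seen. Members and lists were chosen with earlier results of these data known. Other pseudocounts, filters, scalings, variance models, samples in the fit, a replicate block, Dunnett's comparisons and each mouse left out were tried; the coverage-based level was added after seeing the data.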

Additional observations from a re-analysis of the deposited data

Results flagged for a closer look

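In 9 of 70 groups of 4 mice, 1 member value stood apart from the other 3 by a gap that, as a share of the group's range, passed Dixon's 95% critical value; chance flags about 1 in 20 groups. For Il1rl1 these were RM-9 RT 3 h mouse 1 at 94.6 TPM (the others 51.4 to 53.8), RM-9 RT 12 h mouse 2 at 75.7 (40.8 to 43.8), MC-38 RT 3 h mouse 3 at 182 (129 to 135) and MC-38 control mouse 4 at 203 (156 to 163). For Il18bp they were MC-38 control mouse 4 at 56.7 TPM (38.6 to 41.6) and MC-38 RT 12 h mouse 2 at 31.6 (39.1 to 40.4). The others were Il33 in MC-38 RT 12 h mouse 2 at 43.2 TPM (12.9 to 17.2), Il1rap in MC-38 RT 3 h mouse 4 at 17.7 (13.1 to 13.9) and Il1a in MC-38 control mouse 2 at 0.477 (0.244 to 0.268).

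The change in MC-38 minus the change in RM-9 was called at 12 h for Il1rap (0.65, adjusted p = 0.0454), Sigirr (0.94, adjusted p = 0.00263), Nfkb1 (1.00, adjusted p = 0.0031), Rela (0.62, adjusted p = 0.00387), Casp8 (0.74, adjusted p = 0.00751), Prtn3 (1.44, adjusted p = 0.00488), Tnfaip3 (0.73, adjusted p = 0.0102) and Zc3h12a (0.73, adjusted p = 0.0149). None of these 8 was called after median-ratio scaling, which moved the median interaction of all genes near 0. At 24 h the change of Il6 differed by 1.66 (adjusted p = 0.00123) and was called after it. All p-values are from limma with Benjamini-Hochberg adjustment.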

How the results depend on the processing

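Il1rn in MC-38 was called at 12 h and 24 h under all 10 alternative settings of the limma fit, as were Il18bp, Il1rn, Il1r1 and Il1rl1 between the untreated models; Il1rap at 12 h was called under 4 of 10 and Il18bp at 24 h under 6 of 10. At 12 h in MC-38 the count of members called was 2, and it was 5 with median-ratio scaling and 1 with no filter, without the intensity trend, with only the 2 compared groups and with Dunnett's comparisons. At 24 h it was 2, with 1 in the fit of only the 2 compared groups and 5 by Dunnett's comparisons. Dunnett's comparisons gave 1 where limma gave 0 at 24 h in RM-9 (Il1rn) and at 3 h in MC-38 (Il1b). The interaction count at 12 h of 1 was 0 with TPM rescaled without mitochondrial genes and with no filter. With each mouse left out, the counts ranged from 0 to 4 at 12 h and 1 to 3 at 24 h in MC-38, 0 to 1 at 12 h in RM-9, 5 to 7 between untreated models, and 0 to 1 for the 12 h interaction; the others remained at 0. The balance comparisons with exact permutation p under 0.05 numbered 4 to 7 and those of single members 4 to 7, beside 6 each. Between untreated models, Il1rap was called without RM-9 control mouse 3 or MC-38 control mouse 1, and Il33 without RM-9 control mouse 3. The Il1rap difference between untreated models reversed, from 0.35 to -0.29, with median-ratio scaling; a change of sign was counted only where a value was called or both values were above their SE.

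Mouse numbers were checked for pairing: same-numbered mice had correlations of -0.43 to 0.27 in RM-9 and -0.50 to 0.53 in MC-38, so the numbers did not pair the mice. With the replicate block, 1 member was called at 12 h in MC-38 (2 without the block) and 3 at 24 h (2 without).

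TPM holds no counts, and Il1a and Il1r2 rest on few reads. RM-9 RT 24 h had 3 mice. Dunnett's comparisons were run for single members only and were adjusted over the times, not over genes.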
